A study of Mus musculus with 4 samples.

Results

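The family of miR-15, miR-16, miR-195, miR-322 and miR-497 is a set of miRNAs that share 1 seed, the short stretch near the 5′ end by which a miRNA pairs with messenger RNAs. Its members were taken by name, as every 5p arm that carries one of these numbers in a deposited count table of mouse cortex, and 6 of the 942 mature miRNAs of that table met the rule: miR-15a-5p, miR-15b-5p, miR-16-5p, miR-195a-5p, miR-322-5p and miR-497-5p. Small RNA was sequenced from the cortex of 4 mice of the B6C3 strain aged 9 months. WT1 and WT2 were wild type, and APP3 and APP4 were AD mice, which carry the APPswe and PS1ΔE9 transgenes of a mouse model of amyloid β deposition. Per the study's methods WT1 and APP4 had the same parents (group 1), as did WT2 and APP3 (group 2), so each group compared 1 AD mouse with its paired control. The sex of the mice was not given in the sources used here.

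A miRNA is cut from a hairpin as a 5p and a 3p arm, and the arm that is loaded into an Argonaute protein lowers the stability and translation of messenger RNAs that carry a site complementary to its seed. miR-15 and miR-16 are best known as repressors of cyclins and of the survival gene Bcl2, and the hairpins of miR-15a and miR-16-1 lie in a region that is often lost in chronic lymphocytic leukemia. In the AD field, miR-16 and miR-195 have been studied as repressors of App, which encodes the amyloid precursor protein, and of Bace1, which encodes the protease that starts the release of amyloid β.

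The mature sequences (RefSeq, GRCm38.p6) are shown because they define the family. The seed, bases 2 to 8, is in capitals and was AGCAGCA in 6 of 6 members, so that a complementary site in a messenger RNA reads UGCUGCU.
miR-15a-5p: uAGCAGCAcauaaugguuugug
miR-15b-5p: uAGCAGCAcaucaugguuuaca
miR-16-5p: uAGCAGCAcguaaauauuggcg
miR-195a-5p: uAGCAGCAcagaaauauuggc
miR-322-5p: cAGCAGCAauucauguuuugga
miR-497-5p: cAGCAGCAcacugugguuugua
The sequence of miR-497-5p is listed by RefSeq as miR-497a-5p and was matched by its hairpin and arm. Outside the seed the members were less alike. Aligned from their 5′ ends, miR-16-5p and miR-195a-5p differed at 2 positions over the 21 bases of the shorter one, miR-15a-5p and miR-15b-5p differed at 4, and the other pairs of members differed at 5 to 11. The methods state up to 2 mismatches for counting and also that matching to miRBase allowed none, so whether reads of miR-16-5p and miR-195a-5p were split between these rows cannot be told.

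Of the 942 rows, 763 matched a RefSeq mature sequence, and 7 of them had the seed AGCAGCA. The one outside the rule was miR-195b, whose row names no arm, and it had 8, 8, 9 and 12 reads in WT1, WT2, APP3 and APP4. Another 3 miRNAs held the letters AGCAGC within their first 8 bases, shown here in capitals since they pair with an overlapping site.
miR-103-3p: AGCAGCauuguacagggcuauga
miR-107-3p: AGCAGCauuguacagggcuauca
miR-503-5p: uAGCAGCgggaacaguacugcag
In miR-103-3p and miR-107-3p these letters begin 1 base earlier than in the family, and in miR-503-5p they stand at the same place and are followed by another base.

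The 6 members come from 7 hairpins at 4 places in the genome (GRCm38, GENCODE vM21 for the hairpins). Mir15a (chr14:61632027-61632110, minus strand) and Mir16-1 (chr14:61631880-61631972, minus strand) lie 54 bases apart in Dleu2, a non-coding transcript of the same strand. Mir15a is intronic there, while 13 bases of Mir16-1 overlap an annotated exon. Mir15b (chr3:69009772-69009835) and Mir16-2 (chr3:69009902-69009996), both on the plus strand, lie 66 bases apart in an intron of Smc4, which encodes a condensin subunit. Mir497 (chr11:70234717-70234800) and Mir195a (chr11:70235042-70235135) lie 241 bases apart on the plus strand with no host gene of that strand, and Mir497b is annotated opposite to Mir497. Mir322 (chrX:53054255-53054349, minus strand) has no host gene and lies 200 bases from Mir503. Since Mir16-1 and Mir16-2 give the same mature 5p sequence, the reads of miR-16-5p cannot be assigned to either.

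The libraries held between 19048747 and 26085776 miRNA reads, and counts were scaled to reads per 1000000 miRNA reads (RPM), so that 3 reads corresponded to 0.115 to 0.157 RPM. Markers of the cortex were present, with the neuronal miR-124-3p at 7183 to 10834 RPM. APP4 stood apart in the miR-200 family and the miR-183 cluster, whose 8 miRNAs summed to 5862 RPM there and to 576 to 1024 RPM in the other libraries. WT1 stood apart in 3 of 4 red blood cell miRNAs (see miR-16-5p). For 2 libraries at a time, reads were compared by Fisher's exact test, two-sided, with the false discovery rate (FDR) of Benjamini and Hochberg. A call needed both an FDR below 0.05 and a change of 1.5-fold or more. That test compares 2 libraries and not the genotypes, and its standard errors (SE) cover counting error only. In bulk cortex, fewer cells of a type and less RNA per cell cannot be told apart.

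All 6 members were detected in all 4 libraries, and they stood in the same order of level in each of them, miR-16-5p first, followed by miR-195a-5p, miR-15a-5p, miR-497-5p, miR-322-5p and miR-15b-5p. The ranges of neighbours in this order did not overlap over the 4 libraries. Levels of different miRNAs also depend on how well each one is ligated to the adapters, so this order is one of reads. Among all 942 miRNAs, miR-16-5p ranked between 21 and 28, and miR-15b-5p between 288 and 301. The family as a whole took 0.832% and 0.971% of the miRNA reads of the WT mice (WT1 and WT2, here and below in this order) and 1.03% and 1.05% of those of the AD mice (APP3 and APP4).

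**Figure D1:**
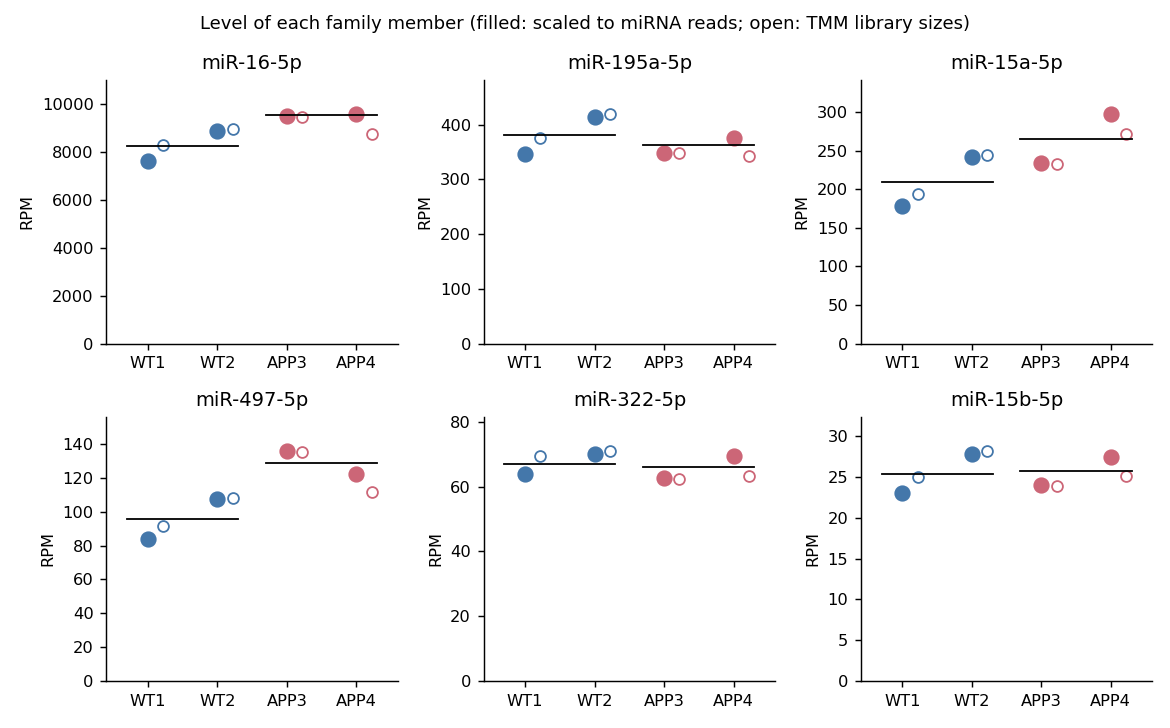
RPM of the 6 members in each library, wild type in blue and AD mice in red, with every axis starting at 0; filled points are scaled to miRNA reads, open points to TMM library sizes, and the line is the mean of the 2 filled points of a genotype. Points of the 2 genotypes are apart in both scalings for miR-497-5p and interleave in both for miR-15a-5p and miR-15b-5p, while miR-16-5p is apart by filled points alone and miR-195a-5p and miR-322-5p by open points alone.

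miR-16-5p, the most abundant member and the product of both the Dleu2 and the Smc4 locus, reached 7624 and 8845 RPM in the WT mice and 9468 and 9565 RPM in the AD mice. Both AD mice were above both WT mice, with means of 8234 ± 863 RPM in WT mice and 9516 ± 68.8 RPM in AD mice (SD, n = 2). The log2 difference of the means, 0.21, was no larger than that between WT1 and WT2, also 0.21. With library sizes corrected by TMM, which sets the typical miRNA equal between libraries, the values were 8288, 8938, 9451 and 8722 and the genotypes overlapped. Over the 4 mice edgeR gave a log2 fold change of 0.08 (SE 0.18), with an adjusted p of 0.972 (Benjamini-Hochberg).

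miR-16-5p is also known as an abundant miRNA of red blood cells, and those markers differed between libraries. miR-451a, the most specific of them, stood at 91.4 RPM in WT1 and 199.9 RPM in WT2, and at 159 and 146 RPM in the AD mice. WT1 was thus lowest for miR-451a as it was for miR-16-5p, and the log2 ratio of miR-451a to miR-23a-3p was -2.68 in WT1 and -1.53 to -1.98 in the other libraries. In APP4 against WT1, 3 of the 4 red cell markers were called higher, in WT2 against WT1 3 of 4, and in APP3 against WT2 0 of 4. Of all tested miRNAs, 9.68% were called higher in APP4 against WT1. In either direction, 10.1% were called in WT2 against WT1 and 6.81% in APP3 against WT2. miR-486-5p, the most abundant marker, went another way, with 3900, 4417, 3881 and 3053 RPM, and it made the summed level of the list 4001 and 4642 RPM in WT mice and 4060 and 3223 RPM in AD mice. The part of red blood cells in the level of miR-16-5p was not tested.

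miR-15a-5p, the neighbour of miR-16-1 in Dleu2, reached 178 and 242 RPM in the WT mice and 233 and 297 RPM in the AD mice. It had the widest range of the family, 1.67-fold from lowest to highest, with APP4 highest and WT1 lowest, and the 2 mice between them were of different genotypes. The means were 209.9 ± 44.8 RPM in WT mice and 265 ± 45.2 RPM in AD mice (SD, n = 2), a log2 difference of 0.34 beside 0.44 between WT1 and WT2. TMM kept this order, with 194, 244, 233 and 271. edgeR gave a log2 fold change of 0.20 (SE 0.22) with an adjusted p of 0.958.

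miR-15b-5p, from the intron of Smc4 and the least abundant member, reached 23.0 and 27.9 RPM in the WT mice and 24.0 and 27.5 RPM in the AD mice. The genotypes interleaved, with means of 25.4 ± 3.43 and 25.7 ± 2.49 RPM (SD, n = 2). The means thus differed by less than the spread of the mice, and the values of miR-16-5p, part of which is encoded 66 bases away, did not interleave in RPM. edgeR gave a log2 fold change of -0.12 (SE 0.21) with an adjusted p of 0.972.

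miR-497-5p, from the locus on chromosome 11, reached 84.1 and 107 RPM in the WT mice and 136 and 122 RPM in the AD mice. It was the 1 member with both AD mice above both WT mice in RPM and, at 91.4, 108, 135 and 112, also with TMM. The means were 95.7 ± 16.4 RPM in WT mice and 129 ± 9.32 RPM in AD mice (SD, n = 2), a log2 difference of 0.43 against 0.35 between WT1 and WT2. edgeR gave 0.31 (SE 0.22), the highest fitted value of the family, with an adjusted p of 0.929 and a 95% interval from -0.21 to 0.82.

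miR-195a-5p, encoded 241 bases from miR-497, did not share that pattern. It reached 346 and 415 RPM in the WT mice and 349 and 376 RPM in the AD mice, so that both AD mice lay between the WT mice. The means were 380.3 ± 48.7 and 362 ± 19.5 RPM (SD, n = 2). With TMM the values were 376, 419, 348 and 343, and both AD mice were below both WT mice. edgeR gave a log2 fold change of -0.20 (SE 0.19) with an adjusted p of 0.958.

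miR-322-5p, the X-linked member, varied least, 1.12-fold between its lowest and highest library. It reached 64.1 and 70.2 RPM in the WT mice and 62.6 and 69.5 RPM in the AD mice, and the genotypes interleaved. With TMM the values were 69.6, 70.9, 62.5 and 63.3, and both AD mice were below both WT mice. edgeR gave a log2 fold change of -0.16 (SE 0.20) with an adjusted p of 0.958.

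Separations of this kind were common among all miRNAs. In RPM, 2 of 6 members had both AD mice above both WT mice and 0 had both below, where 27.0% and 8.99% of the 623 miRNAs tested by edgeR did. With TMM, 1 member was above and 2 were below, beside 14.9% and 19.1% of all tested miRNAs. edgeR called 0 of 6 members at an adjusted p under 0.05, and 0 had an unadjusted p under 0.05. Over all 623 miRNAs it called 0 as well, which is 0% of those tested, and 36 or 5.78% had an unadjusted p under 0.05. DESeq2 called 0 of 942, with 28 at an unadjusted p under 0.05. The median log2 fold change was -0.02 over the members, 3 of them positive and 3 negative, and -0.02 over all tested miRNAs.

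**Figure D2:**
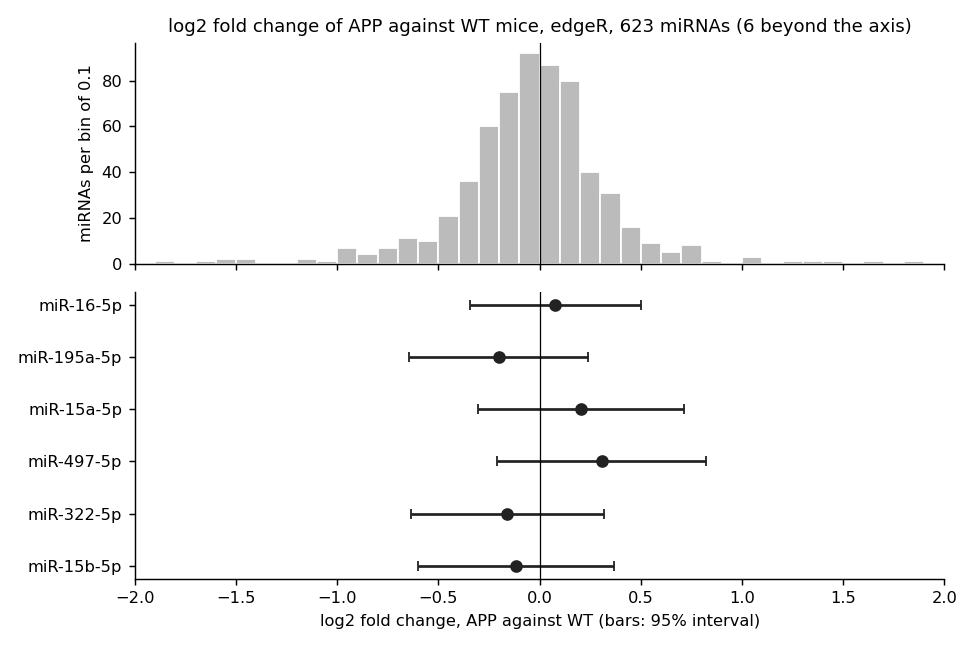
edgeR log2 fold changes of AD mice against WT mice, as a histogram of all 623 tested miRNAs (6 lie beyond the axis) and, below, as a point with its 95% interval for each member. All 6 intervals include 0, and the points lie between -0.20 and 0.31.

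Within group 1, in which APP4 was compared with WT1, the 6 members were higher in APP4. The Fisher test called 1 of 6, miR-15a-5p, where 11.6% of 899 tested miRNAs were called and 9.68% were called higher. miR-15a-5p had 5664 reads in APP4 and 4649 in WT1, a log2 fold change of 0.74 (SE 0.03) at an FDR of 3.53e-147 by Fisher's exact test. miR-497-5p came next with 0.54 (SE 0.04), 1.46-fold and so just under the limit. miR-16-5p followed with 0.33, miR-15b-5p with 0.26, and miR-195a-5p and miR-322-5p with 0.12 each. The FDR was under 0.05 for 5 of 6 members, miR-322-5p being the exception at 0.0697, and for 40.3% of all tested miRNAs. The tested miRNAs include some with very few reads, for which an FDR under 0.05 is hard to reach. Each member had at least 510 reads in every library, so these shares are not like for like. No share was computed for miRNAs of the members' read depth, and so the shares do not show an enrichment of the family.

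These values have to be read against the libraries. The median log2 fold change of group 1 was 0.29 over the members and 0.21 over all miRNAs tested. It was 0.14 over miRNAs of at least 50 RPM, the level of all members but miR-15b-5p. The typical miRNA was thus higher in APP4 as well. TMM moved the value of every miRNA in this comparison by -0.25 on the log2 scale, and then no member was called, 4 were higher, 2 were lower, and the members' median was 0.04. miR-15a-5p kept a TMM-scaled difference of 0.48. WT1 was the library with the lowest RPM for 5 of the 6 members (miR-322-5p was lowest in APP3) and for 3 of 6 with TMM.

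Within group 2, in which APP3 was compared with WT2, the members did not repeat that pattern. None of the 6 was called, where 6.81% of 896 tested miRNAs were. For 5 of 6 the FDR was under 0.05, beside 36.0% of all, which again include miRNAs with very few reads. miR-497-5p was higher in APP3, by 0.34 (SE 0.04), and miR-16-5p by 0.10. miR-195a-5p was lower in APP3 by a log2 fold change of -0.25 (SE 0.02), miR-15b-5p by -0.22 (SE 0.09) and miR-322-5p by -0.16 (SE 0.05). miR-15a-5p, the member called in group 1, had 4965 reads in APP3 and 5334 in WT2 and a log2 fold change of -0.05 (SE 0.03, FDR 0.191 by Fisher's exact test). The median was -0.11 over the members and 0.05 over all tested miRNAs, and TMM moved each value by -0.02. In both groups, then, miR-16-5p and miR-497-5p were higher in the AD mouse than in its paired control.

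**Figure D3:**
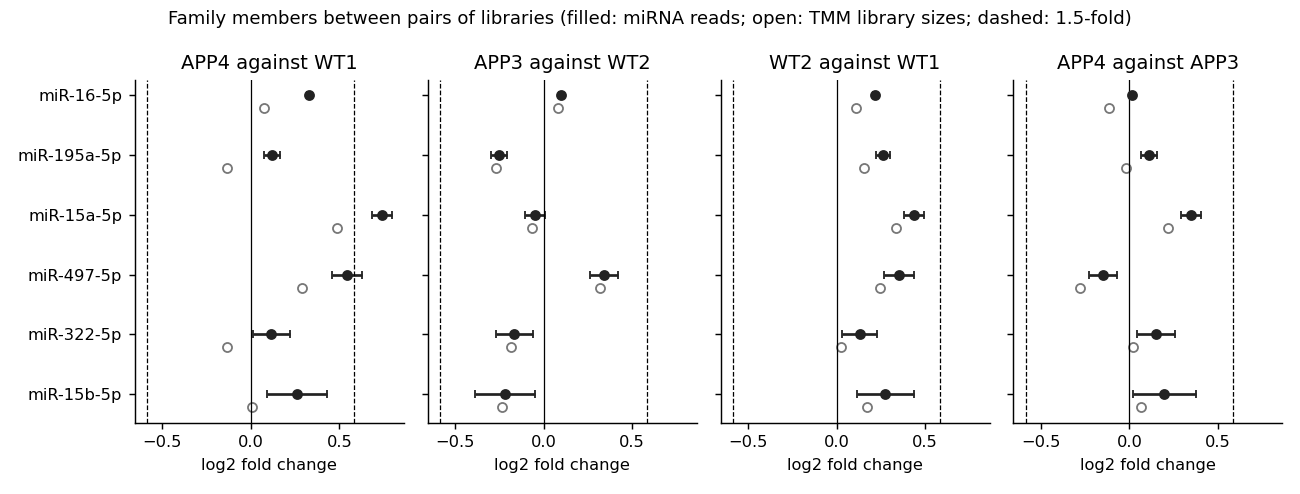
Log2 fold change of each member in 4 comparisons of 2 libraries, the 2 groups on the left and the 2 pairs of mice of one genotype on the right; filled points are RPM with a bar for the 95% interval of counting error, open points use TMM library sizes, and dashed lines mark 1.5-fold. miR-15a-5p in APP4 against WT1 is the filled point beyond the dashed line, and the members differ between WT1 and WT2 by 0.13 to 0.44.

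Mice of one genotype also differed. For miR-15a-5p, miR-497-5p and miR-16-5p these differences were smaller than those of group 1, at 0.74, 0.54 and 0.33. For miR-15b-5p, miR-195a-5p and miR-322-5p the difference between WT2 and WT1 was larger than that of group 1. Between WT2 and WT1 the 6 members were higher in WT2, with log2 fold changes from 0.13 for miR-322-5p to 0.44 for miR-15a-5p, an FDR under 0.05 for 6 of 6 (40.5% of all tested miRNAs), and 0 called (10.1% of 879). Between APP4 and APP3, 5 were higher in APP4, up to 0.35 for miR-15a-5p, while miR-497-5p was lower at -0.15. The FDR was under 0.05 for 5 of 6 (35.2% of all), and 0 were called (8.05% of 907). In both comparisons the share of all tested miRNAs under this FDR was not matched to the members for read depth. The choice of control mattered accordingly. Against WT1 instead of its paired control, APP3 had miR-497-5p called at 0.69 (SE 0.04), 1.61-fold (11.1% of 888 called), and against WT2 instead of WT1, APP4 had no member called and miR-15a-5p at 0.30 (10.6% of 896 called).

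The composition of the family does not depend on how libraries are scaled, since each member is then set against the other members of its own library. miR-16-5p held 91.6% and 91.1% of the family's reads in the WT mice and 92.2% and 91.5% in the AD mice. The summed family had 8319, 9706, 10272 and 10458 RPM, with means of 9013 ± 981 RPM in WT mice and 10365 ± 131 RPM in AD mice (SD, n = 2), and this sum is essentially miR-16-5p. Without it the sums were 695, 862, 804 and 893 RPM and overlapped between genotypes, at 778 ± 118 and 849 ± 62.7 RPM (SD, n = 2).

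miR-195a-5p held 4.16% (95% Wilson interval 4.07 to 4.24) of the family's reads in WT1 and 4.27% (4.19 to 4.36) in WT2, against 3.39% (3.32 to 3.47) in APP3 and 3.596% (3.52 to 3.68) in APP4. miR-497-5p held 1.01% (0.969 to 1.05) in WT1 and 1.11% (1.06 to 1.151) in WT2, against 1.32% (1.27 to 1.37) in APP3 and 1.17% (1.12 to 1.22) in APP4. The shares of miR-195a-5p were lower and those of miR-497-5p higher in both AD mice, but the intervals of WT2 and APP4 overlapped for miR-497-5p. The shares of miR-322-5p (0.770%, 0.723%, 0.609% and 0.664%, with overlapping intervals in WT2 and APP4) and of miR-15b-5p (0.276%, 0.287%, 0.233% and 0.263%, with overlapping intervals as well) were also lower in both AD mice. Those of miR-15a-5p, at 2.14%, 2.49%, 2.27% and 2.84%, overlapped between genotypes. Because miR-16-5p held most of the family's reads, each of these shares is close to a ratio to miR-16-5p. The shares are thus not independent of each other. Among all ratios of 2 miRNAs of at least 50 RPM, 34.3% did not overlap between genotypes.

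**Figure D4:**
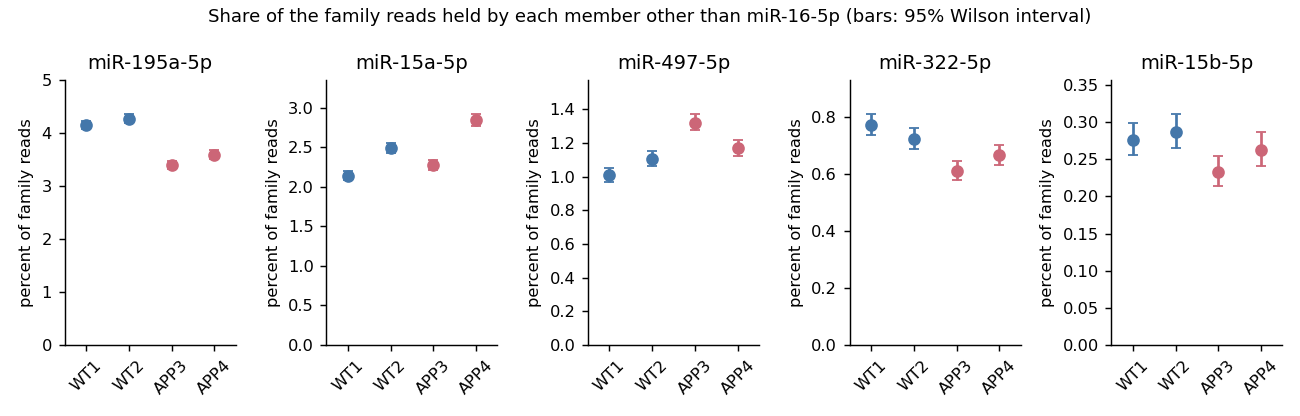
Share of all family reads held by each of the 5 members other than miR-16-5p, in percent with a 95% Wilson interval that covers counting error only, for WT mice in blue and AD mice in red, with every axis starting at 0. The shares of miR-195a-5p, miR-322-5p and miR-15b-5p are lower in both AD mice and that of miR-497-5p is higher, while intervals overlap between libraries of different genotype for miR-497-5p, miR-322-5p and miR-15b-5p and not for miR-195a-5p.

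The ratio of miR-195a-5p to miR-497-5p was 4.11 and 3.87 in the WT mice, above the 2.57 and 3.07 in the AD mice. Its mean log2 value was 1.995 ± 0.06 in WT mice and 1.49 ± 0.18 in AD mice (SD, n = 2), a difference of -0.51, the largest among the ratios of 2 members. By a two-sided exact permutation test the p was 0.333, the smallest that 2 mice against 2 can give. Any ratio that does not overlap between genotypes gives this p, and this ratio was picked as the largest, so the test adds nothing. Among the 15 ratios of 2 members, 11 did not overlap between genotypes. These include ratios of miR-15b-5p, which lay below 50 RPM, and no share over all miRNAs was computed for that level. Among the 10 ratios of the 5 members of at least 50 RPM, 7 did not overlap. Of the 31626 ratios of 2 miRNAs of that level, 34.3% did not overlap. The ratios share their members and are not independent of each other. miR-195a-5p amounted to 4.54%, 4.69%, 3.68% and 3.93% of miR-16-5p.

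The 3p arms, which are mostly degraded after the hairpin is opened, were far rarer for most hairpins. miR-322 was the exception with 2.26 to 2.81 reads of the 5p arm for each read of the 3p arm, followed by miR-15b with 7.41 to 8.45 and miR-195a with 19.4 to 32.2. For miR-15a the ratio was 108 to 218, for miR-497 it was 366 to 1185 on 2 to 6 reads of the 3p arm, and for miR-16 it was 1591 to 2876 with the 3p arms of both hairpins summed.

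**Figure D5:**
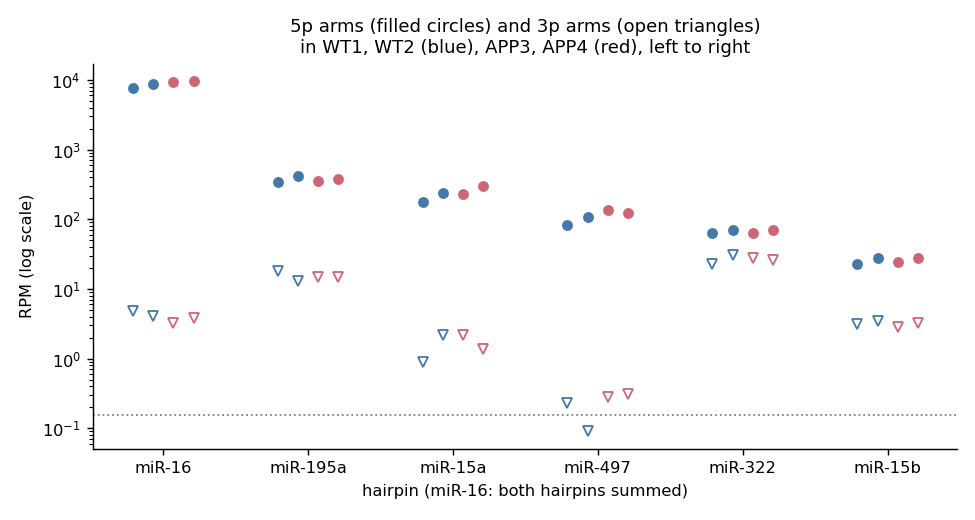
RPM of the 5p arm (filled circles) and the 3p arm (open triangles) of each hairpin on a log axis, with WT1 and WT2 in blue and APP3 and APP4 in red from left to right, and a dotted line at the RPM of 3 reads in the shallowest library. The arms lie closest together for miR-322, and the 3p arm of miR-497 lies near the dotted line.

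The 3p arms give the one view of the 2 sources of miR-16, as they differ in sequence between Mir16-1 and Mir16-2. Reads of miR-16-1-3p numbered 104, 65, 54 and 63 and those of miR-16-2-3p numbered 21, 25, 16 and 10. The Dleu2 hairpin thus gave 83.2% and 72.2% of these reads in the WT mice (95% Wilson intervals 75.7 to 88.7 and 62.2 to 80.4). In the AD mice it gave 77.1% and 86.3% (66.0 to 85.4 and 76.6 to 92.4). The shares overlapped between genotypes. They describe the 3p arms, and how they relate to the sources of miR-16-5p was not tested.

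Of the 7 other arms, 0 were called in group 1 (11.6% of all) and 0 in group 2 (6.81%), and 1 was called in WT2 against WT1 (10.1%). That one was miR-15a-3p, with 23 and 48 reads in the WT mice and 46 and 26 in the AD mice. It was low in both mice of group 1 and high in both of group 2. Its 5p arm, in contrast, was highest in APP4. miR-195a-3p, with 466, 284, 311 and 283 reads, had its highest RPM in WT1, the library in which miR-195a-5p had its lowest RPM. With TMM library sizes miR-195a-5p was lowest in APP4 instead. The log2 fold changes of miR-195a-3p were -0.26 (SE 0.11) for group 1 and 0.18 (SE 0.12) for group 2.

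Mir322 lies in an X-linked cluster with miR-503, miR-351, miR-542, miR-450a and miR-450b. Of its 11 other arms listed, 10 were in the table, and 0 were called in group 1 (11.6% of all) or in group 2 (6.81%). In WT2 against WT1, 2 were called higher, where 10.1% of all tested miRNAs were called in either direction. The abundant neighbour was miR-351-5p, with 321.9 and 315 RPM in the WT mice and 291 and 271 RPM in the AD mice. Both AD mice were lower, by log2 fold changes of -0.25 (SE 0.03) in group 1 and -0.12 (SE 0.03) in group 2, and edgeR gave -0.31 (SE 0.20) with an adjusted p of 0.929. miR-503-5p, which shares 6 letters of the seed, had only 10, 9, 4 and 4 reads.

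The miRNAs with AGCAGC in another frame were far more abundant than most of the family. miR-103-3p, known for a role in insulin sensitivity, reached 4418 and 3071 RPM in the WT mice and 3776 and 4732 RPM in the AD mice, and miR-107-3p, which has also been studied as a repressor of Bace1, had 830, 649.8, 786 and 969.7 RPM. Both were lowest in WT2, where 3 of the family members were highest. None of the 3 miRNAs with these letters was called in group 1 (11.6% of all) or in group 2 (6.81%).

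Patterns over the 4 libraries were compared by the root mean square difference of centred log2 RPM, for the 252 miRNAs of at least 50 RPM. miR-15b-5p was below this level. Among the members, miR-195a-5p and miR-322-5p were most alike at 0.05, although they come from chromosomes 11 and X. Least alike were miR-195a-5p and miR-497-5p, which come from the same locus, at 0.271. They were nearly tied with miR-322-5p and miR-497-5p, from chromosomes X and 11, at 0.267. Outside the family, the nearest miRNA was miR-23b-3p for miR-322-5p at 0.02, miR-24-2-5p for miR-195a-5p at 0.03, miR-92b-3p for miR-16-5p at 0.04, miR-543-3p for miR-15a-5p at 0.04 and miR-666-3p for miR-497-5p at 0.05. The likeness rests on 4 values and on the scaling of 4 libraries.

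Beyond red blood cells, the marker lists moved as follows. White blood cell and microglial miRNAs had 2 of 6 called higher in group 1, miR-142-3p and miR-142-5p, where 9.68% of all tested miRNAs were called higher. In group 2, 1 of 6 was called higher, miR-142-3p, where 6.81% of all were called in either direction. miR-142-3p had only 49 and 32 reads in the WT mice and 62 and 65 in the AD mice, with an adjusted p of 0.768 by edgeR. The summed levels of the list were 1588 and 1630 RPM in WT mice and 1702 and 1805 RPM in AD mice. The most abundant marker of this list, miR-146a-5p, had 1149, 1071, 1023 and 1209 RPM. It and miR-223-3p overlapped between genotypes in RPM, while the other markers were higher in both AD mice, as were 27.0% of the miRNAs tested by edgeR. With TMM, miR-142-3p and miR-142-5p alone were higher in both AD mice, beside 14.9% of the miRNAs tested by edgeR. miR-150-5p of this list, an abundant miRNA of lymphocytes, had 373, 474, 577 and 492 RPM. It was the third nearest miRNA to miR-497-5p, at 0.06, after miR-666-3p and miR-431-5p. The part of such cells in the level of miR-497-5p was not tested. No marker of vessels, neurons or oligodendrocytes was called in either group. The miR-200 and miR-183 list had 8 of 8 called higher in group 1 (9.68% of all) and 4 of 8 called lower in group 2 (6.81% of all in either direction). Its part in the members' values was not tested.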

How the data were processed

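Small RNA from the cortex of 4 mice was sequenced (TruSeq small RNA, HiSeq). Per the methods, the authors trimmed the reads, kept 18 to 35 bases, matched them to miRBase with Bowtie and counted mature and variant reads in CLC genomics workbench with up to 2 mismatches; they also state that matching to miRBase allowed none. The labels name CASAVA 1.8 and mm9, the methods GRCm38. The authors deposited raw counts and the same values as RPM of clean reads, used here only for library sizes. Here, counts were scaled to the column sum. Libraries were compared by Fisher's exact test (two-sided, in scipy 1.17.1), the test of the methods, over all miRNAs with a read, with Benjamini-Hochberg adjustment and 0.5 read added for log2 fold changes. The genotypes were compared by the quasi-likelihood test of edgeR 4.0.16 (R 4.3.3) after filterByExpr and TMM, with Benjamini-Hochberg adjusted p, and with DESeq2 1.42.0. Scripts were tested on simulated data with less spread between mice than in these data, so this tells nothing of their power here. Wilson intervals and the intervals of comparisons of 2 libraries cover counting error only. edgeR's intervals also include the spread between mice. With 2 mice per genotype, p-values of edgeR and DESeq2 rest on the spread of these mice, estimated with information shared over miRNAs. Those of Fisher's exact test measure the sampling of reads alone. No 2 libraries differed by sampling noise alone (chi-square per degree of freedom at least 574). Pairing was taken from the methods. Over 252 miRNAs, deviations of WT1 and APP4 from their genotype means correlated with r = 0.235, given as a description. Of the 5 members among them, 1 deviated in the same direction in both mice.

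The members, lists and tests were chosen with earlier results of these data known. Named were all members, their 3p arms, X-linked neighbours of Mir322, miRNAs sharing the letters of the seed, the 3 nearest non-members and marker lists. Alternatives were TMM or clean-read library sizes, values scaled to 1000000 and rounded, Bonferroni, a 2-fold limit, 5 reads added, a minimum of 10 RPM, the pair as a block, DESeq2 and its size factors, no TMM, no filter, and each mouse left out. The other WT mouse as control was added after seeing the data.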

Additional observations from a re-analysis of the deposited data

Results flagged for a closer look

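miR-15b-5p and miR-195a-5p moved in opposite directions in the 2 groups, and the difference between the groups was not tested, since each group holds 1 mouse per genotype. miR-15b-5p had a log2 fold change of 0.26 (SE 0.09) in APP4 against WT1 and of -0.22 (SE 0.09) in APP3 against WT2, at FDRs of 0.00867 and 0.0384 by Fisher's exact test on the reads of 2 libraries. miR-195a-5p had 0.12 (SE 0.02) and -0.25 (SE 0.02), at FDRs of 4.86e-07 and 5.22e-28 by the same test. In both cases WT1 was the lowest library and WT2 the highest, and the AD mice lay between them. With TMM library sizes miR-15b-5p was at 0.0048 in APP4 against WT1, at an FDR of 1 by Fisher's exact test, and its lowest library was APP3. With the same sizes miR-195a-5p was at -0.13 in APP4 against WT1 and so had the same direction in both groups.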

How the results depend on the processing

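In APP4 against WT1 the 1 member called, miR-15a-5p, was not called, leaving 0, with TMM library sizes (log2 fold change 0.48), with a limit of 2-fold (0.74) or against the other WT mouse (0.30), a control chosen after seeing the data. In APP3 against WT2 the count of 0 became 1 against the other WT mouse, with miR-497-5p at 0.69. TMM reversed miR-195a-5p (-0.13) and miR-322-5p (-0.14) in APP4 against WT1, and miR-16-5p (-0.12) and miR-195a-5p (-0.021) in APP4 against APP3, where clean-read library sizes also reversed miR-16-5p (-0.057). Against the other WT mouse, miR-15b-5p (-0.018), miR-195a-5p (-0.14) and miR-322-5p (-0.014) reversed for APP4, and miR-15a-5p (0.39), miR-15b-5p (0.060) and miR-195a-5p (0.011) for APP3. In edgeR's comparison of the genotypes miR-15b-5p reversed without TMM (0.018) and without WT2 (0.0075). The cause of these changes was not tested. Of the members' fold changes under the alternatives, 217 kept their direction and whether they were called, 13 reversed, 3 lost a call and 1 gained one. Bonferroni, the 2-fold limit and the minimum of 10 RPM leave a fold change as it is and could not reverse it. Bonferroni and the 2-fold limit also could not add a call. The 217 thus include entries whose outcome was largely fixed in advance, and their number does not measure robustness. Of the 217, 31 crossed the limit of 0.05 of the FDR or adjusted p with no change of call, among them miR-15b-5p in APP4 against WT1 (FDR 0.00867, and 1 with TMM).

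The mean of the summed family was 7773 RPM in WT mice and 8857 RPM in AD mice with clean-read library sizes, and 9426 RPM in WT mice and 9895 RPM in AD mice with TMM. edgeR under each alternative, and DESeq2, called 0 members, and the lowest adjusted p of a member was 0.844. With the pair of mice of the same parents as a replicate block, 0 members and 2 of 623 miRNAs were called, against 0 without the block. Leaving out 1 mouse at a time called 0 members each time and 0 to 21 miRNAs in all: 3 without WT1, 0 without WT2, 21 without APP3 and 5 without APP4. The lone mouse of a genotype is then assumed to vary like the others. Over these fits miR-15a-5p ranged from 0.04 to 0.42, miR-15b-5p from -0.21 to 0.0075, miR-16-5p from 0.014 to 0.17, miR-195a-5p from -0.29 to -0.09, miR-322-5p from -0.18 to -0.11 and miR-497-5p from 0.16 to 0.47.

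Depth is not the limit for the members, of which the rarest had at least 510 reads. The 3p arm of miR-497 had 2 to 6 reads, which allow no comparison. edgeR's 95% intervals of the members span from -0.65 to 0.82.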
